A study of Mus musculus with 12 samples.

Results

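The genes described are 9: Cdc42, Cdk6, Ppm1d, Hbp1, Ccnd2, Klf4, Nfia, Grn and Bace1. All are reported as targets of the microRNA miR-29 in tissues other than the immune system, and the question here was which of them differed in helper T cells when miR-29 was supplied or blocked. The members were all non-control array probes assigned to these genes, 19 probes of 9 genes among 41174 distinct probes and 17198 genes. Cdc42, Ccnd2 and Nfia had 3 probes each, Cdk6, Ppm1d, Hbp1 and Grn had 2 each, and Klf4 and Bace1 had 1 each. Probes of one gene share a source and are not independent; the 2 Hbp1 probes are assigned to different RefSeq transcripts, and those of each other gene to a single one. All 19 probes were well above background on all 12 arrays, so none was lost to the filter on dim probes.

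The cells were helper T cells of C57BL/6 mice aged 7 weeks, either Dgcr8-deficient or wild type, with 3 mice per genotype, numbered 2, 3 and 4. Activation through CD3 and CD28 lasted 65 hours in all cultures and was followed by 48 hours in IL-2. Electroporation took place on day 1 and again on day 4, and RNA was taken on day 5, that is 24 hours later. Each Dgcr8-deficient mouse gave one culture with miR-29b and one with a control miRNA; each wild-type mouse gave one with miR-29 inhibitors and one with control inhibitors. This made 4 groups of 3 one-colour Agilent arrays. Dgcr8 is the partner of Drosha in the first cut of microRNA precursors, so Dgcr8-deficient cells are used as a background short of endogenous microRNAs into which a single one can be put back. The labels give neither the allele nor the Cre driver of the Dgcr8 deficiency. Because the control oligonucleotide also differed between genotypes, genotype and kind of control cannot be told apart.

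MicroRNAs guide Argonaute proteins to messenger RNAs, mostly through pairing of the seed near the 5′ end with sites in the 3′ untranslated region, which lowers the stability and translation of the message. The miR-29 family is known in T cells for restraining the interferon gamma program, and in other tissues for targeting extracellular matrix and DNA methylation genes. The mature family members are shown because they share the seed of the transfected miR-29b, and the inhibitors were directed at miR-29. Sequences are from RefSeq (GRCm38.p6), with the seed (bases 2 to 8) in capitals.
mmu-miR-29a-3p: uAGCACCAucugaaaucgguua
mmu-miR-29b-3p: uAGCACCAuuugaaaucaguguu
mmu-miR-29c-3p: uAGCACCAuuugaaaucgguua
The mature miR-29a lies at chr6:31062673-31062694 and one copy of miR-29b at chr6:31063025-31063047, both on the minus strand. The other copy of miR-29b lies at chr1:195037091-195037113 and miR-29c at chr1:195037600-195037621, both on the plus strand. All have the seed AGCACCA. Counted from the 5′ end, miR-29b differs from miR-29c within the first 22 bases at A18G, G21U and U22A, and from miR-29a also at U10C. Target sites in the messages of the 9 genes were not analysed here.

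The number of probes well above background ranged from 27301 to 31416 over the arrays, and 32215 probes were tested. Levels are given on a log2 scale after subtraction of each array's 75th percentile, and they are comparable between arrays for one probe but not between probes. For Dgcr8 itself the highest level among Dgcr8-deficient arrays was -0.15 and the lowest among wild-type arrays -0.16, and the control groups differed by -1.06 ± 0.38 (SE), which did not pass the test (adjusted p = 0.0906). Of 9 CD4 T cell markers, 9 were well above background on all arrays, with summed levels (log2 of the summed signals) of 8.71 to 8.72 in Dgcr8-deficient control, 9.08 to 9.28 with miR-29b, 8.90 to 9.23 in wild-type control and 9.09 to 9.14 with inhibitors. The sum in Dgcr8-deficient control was thus below those of the other groups, but its markers did not all go the same way. Against wild-type control, Cd3d, Cd3e, Cd3g, Cd2, Lck and Thy1 were lower and Cd5 was level (6.59 and 6.58). Cd4 (-0.1 and -0.26) and Cd28 (3.49 and 2.25) were higher. The level of 4 NK cell markers, 1 of which was well above background on all arrays, was -2.42 to -1.89 in Dgcr8-deficient control and -3.64 to -2.56 with miR-29b, without overlap, and -4.29 to -3.04 in wild-type control. Within the NK list, mean levels with miR-29b against control miRNA were lower for Klrk1 (-5.44 against -3.76) and Klrb1c (-3.96 against -3.39). Klra8 was higher (-5.57 against -5.89) and Ncr1 was level (-5.91 against -5.88). The part of the CD4 T cell and NK cell markers in the members' differences was not tested. The arrays of Dgcr8-deficient mouse 3 stood apart: their median level of 4 Y-linked genes was at most -7.83, against at least -0.36 on the other 10 arrays, and the miR-29b array of that mouse had 1458 spots marked as outliers by the scanner software, against 68 to 193 on the other 11. None of the 19 member probes was marked on any array. The arrays of any one mouse lay on a single slide, so differences within a mouse are also differences within a slide.

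With miR-29b in Dgcr8-deficient cells, 17 of the 19 member probes were lower and their median change was -0.53, against 0.10 over all 32215 probes. By the brightest probe of each gene, 7 of the 9 genes were lower and the median was -0.25, against 0.10 over 14736 genes. In the fit of group means 0 of the 19 passed an adjusted p of 0.05, where 0.916% of all probes did (0.515% lower and 0.400% higher), and 11 were below 0.05 unadjusted (3627 of all probes were). Once each mouse was compared with itself (mouse as a block in limma), 12 probes of 6 genes passed: Nfia, Ccnd2 and Cdc42 on all 3 of their probes, Ppm1d and Hbp1 on 1 of 2 each, all lower, and Bace1, higher. With the mouse as a random block 12 probes of 7 genes passed, where Cdc42 A_51_P230977 was lost and Cdk6 A_51_P388310 gained. With the fixed block 6.60% of all probes passed as lower and 8.05% as higher, and the share with the random block is not given here. With the slide or the scan day as a block in place of the mouse, 11 and 10 member probes passed (11.5% and 8.06% of all probes). Both of these blocks, like the fit of group means, treat the 2 arrays of a mouse as independent. Only 2 slides hold both genotypes. Between the genotypes the p-values of these blocks therefore do not measure the spread between mice alone. With miR-29 inhibitors in wild-type cells 0 of the 19 probes and 0% of all probes passed, and among the members the Nfia values were the ones furthest above zero. Between the control groups, 8 member probes passed: all probes of Nfia and Ccnd2 and 1 of Hbp1 were higher in Dgcr8-deficient cells, and 1 of Cdc42 was lower, where 17.1% of all probes passed. Across all 4 groups at once (limma's F test), the 3 Nfia probes, the 3 Ccnd2 probes and 2 of the Cdc42 probes passed, 8 of 19, where 21.3% of all probes did.

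**Figure D1:**
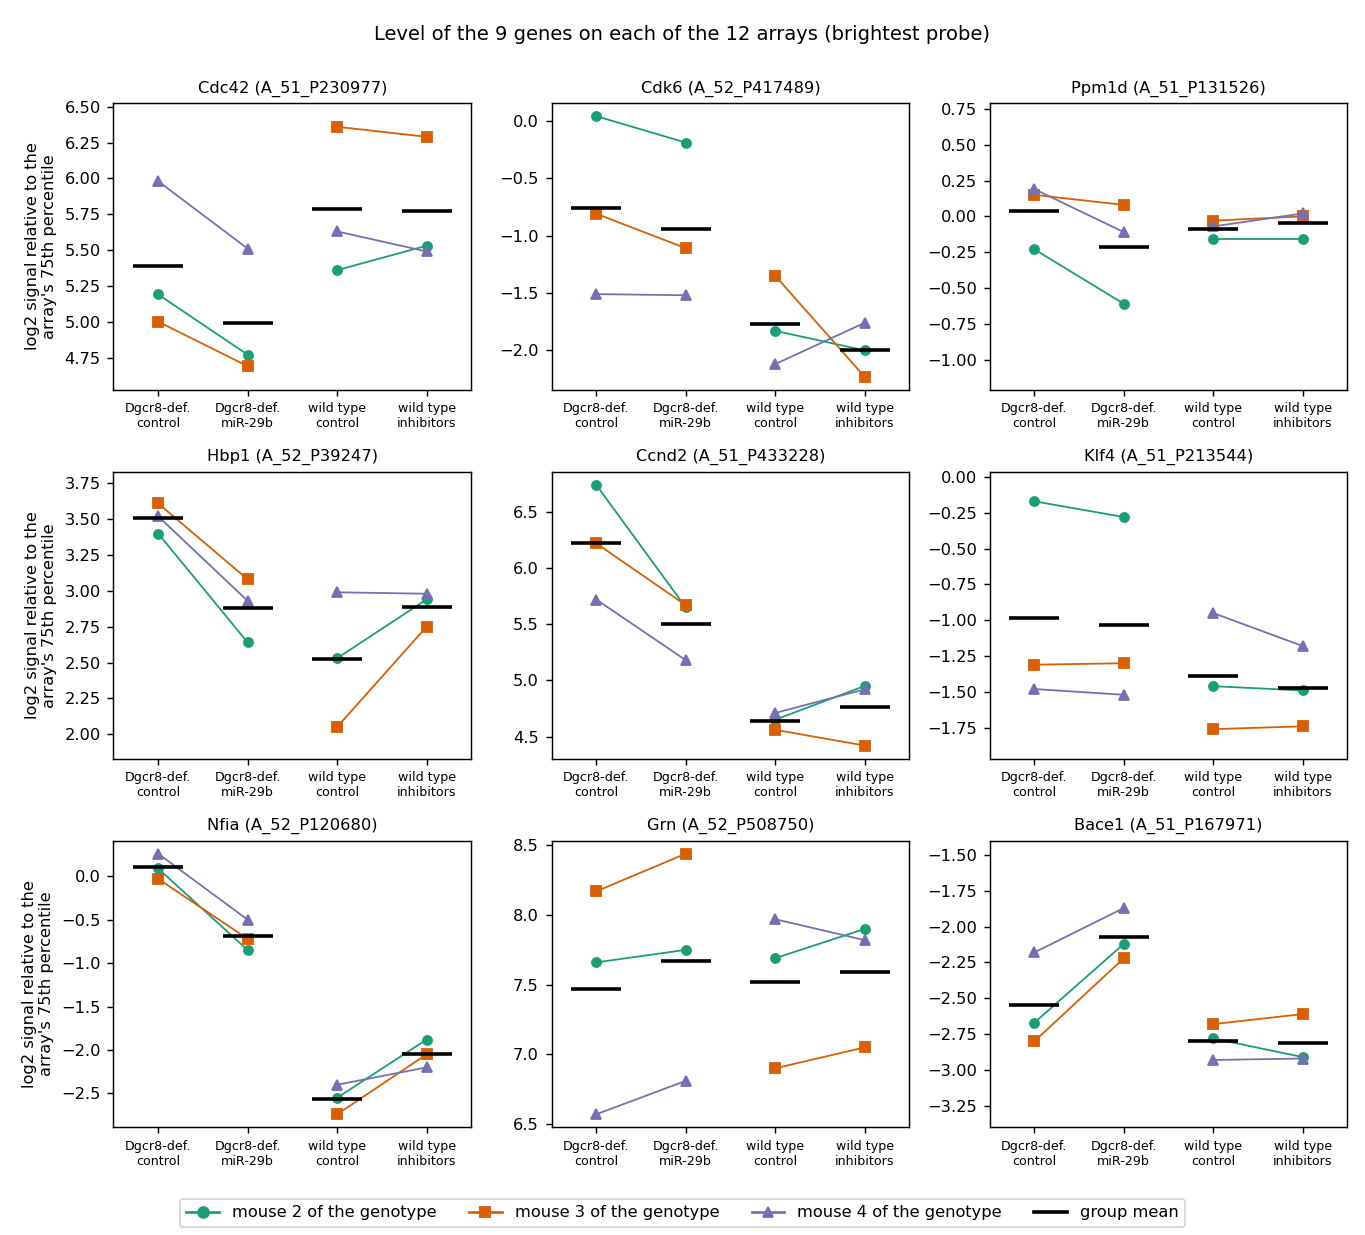
Level of each of the 9 genes on the 12 arrays (brightest probe of each gene, log2 signal relative to the array's 75th percentile; vertical scales differ between panels). Lines join the 2 arrays of one mouse and black bars are means of 3 arrays; Nfia steps down from Dgcr8-deficient control to miR-29b and lies lowest in wild-type control, where the mean is -2.56.

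Nfia encodes nuclear factor I/A, a DNA-binding transcription factor known for its part in glial and blood cell differentiation. On its brightest probe (A_52_P120680) the Dgcr8-deficient control arrays read 0.09, -0.03 and 0.26 and the miR-29b arrays of the same mice -0.85, -0.72 and -0.50. The wild-type control arrays read -2.55, -2.74 and -2.40, and the inhibitor arrays -1.88, -2.05 and -2.20. No 2 of the 4 groups overlapped: the order was Dgcr8-deficient control, miR-29b, wild type with inhibitors and wild-type control.

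The difference between the control groups was a log2 change of 2.67 ± 0.18 (SE, n = 3 per group), which is 6.37-fold (adjusted p = 1.73e-05), and its other probes, A_51_P134014 and A_52_P641684, gave 2.59 ± 0.21 and 2.74 ± 0.23. All 3 passed under each alternative run for them, with the smallest value at 1.16, for A_52_P641684 with the normexp background correction. Within the 2 slides that hold both genotypes, the brightest probe differed by 2.64 and 2.99. With miR-29b, Nfia was lower by 0.94, 0.70 and 0.76 in mice 2, 3 and 4, a mean log2 change of -0.80 ± 0.18 or 1.74-fold. That change had an adjusted p of 0.0754 without the mouse in the model and fell with it (-0.80 ± 0.13, adjusted p = 0.0167). It also passed in a fit of 1 probe per gene (adjusted p = 0.0393) and in the authors' deposited table (-0.80, adjusted p = 0.0199). The other 2 probes fell too with the mouse as a block, by 0.80 ± 0.16 and 0.97 ± 0.13. Over all alternatives the miR-29b change of A_52_P641684 ranged from -1.18 to -0.52.

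Blocking miR-29 in wild-type cells went with Nfia levels 0.67, 0.68 and 0.21 higher on the brightest probe in mice 2, 3 and 4, a mean of 0.52 ± 0.18. This did not pass (adjusted p = 1; unadjusted p = 0.0147). A_52_P641684 was also higher in 3 of 3 mice (0.46, 0.71 and 0.30), while A_51_P134014 was higher in 2 of 3, with -0.07 in mouse 4. Over all alternatives the mean inhibitor change of A_52_P641684 ranged from 0.01 to 0.56, and with 1 array left out from 0.40 to 0.56. That of the brightest probe ranged from 0.29 to 0.60 over all alternatives. Inhibitor and control arrays did not overlap on 2 of the 19 member probes, both of Nfia and both higher with inhibitors, where 1.55% of all probes were so placed and 1.01% were lower without overlap. The effect of miR-29b minus that of the inhibitors was -1.32 ± 0.25 on the brightest probe (adjusted p = 0.144). With the mouse as a block it passed on that probe (adjusted p = 0.0343) and on A_52_P641684 (-1.46 ± 0.19, adjusted p = 0.0335). Over all alternatives the value of A_52_P641684 ranged from -1.67 to -0.53.

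Ccnd2 encodes cyclin D2, which activates CDK4 and CDK6 in the G1 phase of the cell cycle. A_51_P433228, its brightest probe, read 6.74, 6.22 and 5.72 in Dgcr8-deficient control and 5.65, 5.67 and 5.18 with miR-29b. Wild-type control read 4.65, 4.56 and 4.71, and wild type with inhibitors 4.95, 4.42 and 4.92. Dgcr8-deficient control was highest and miR-29b next, apart from each other and from the wild type, whose 2 groups overlapped. A_52_P514391 had the same order and gaps, while on A_52_P53906 all neighbouring groups overlapped.

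All 3 Ccnd2 probes were higher in Dgcr8-deficient than in wild-type control, by 1.59 ± 0.27 (3.00-fold, adjusted p = 0.00302), 1.83 ± 0.24 (A_52_P514391) and 1.59 ± 0.33 (A_52_P53906), and all passed under each alternative run for them. Within the shared slides the brightest probe differed by 2.09 and 1.15. miR-29b gave 1.09, 0.55 and 0.54 lower values in mice 2, 3 and 4, a mean change of -0.73 ± 0.27 (adjusted p = 0.319). With the mouse as a block it fell (-0.73 ± 0.15, adjusted p = 0.0318), as did A_52_P514391 (-0.76 ± 0.13) and A_52_P53906 (-0.75 ± 0.15). Inhibitors gave 0.30, -0.14 and 0.21, higher in 2 of 3 mice, with a mean of 0.12 ± 0.27 (adjusted p = 1).

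Cdk6 encodes a kinase partner of the D cyclins. A_52_P417489 read 0.04, -0.81 and -1.51 in Dgcr8-deficient control, -0.19, -1.11 and -1.52 with miR-29b, -1.83, -1.35 and -2.12 in wild-type control and -2.0, -2.23 and -1.76 with inhibitors. Neighbouring groups in this order all overlapped. Its 2 probes were 1.0 ± 0.43 and 1.27 ± 0.57 higher in Dgcr8-deficient than in wild-type control, and neither passed (adjusted p = 0.152 and 0.170). Within the shared slides A_52_P417489 differed by 1.86 and -0.17, and A_51_P388310 passed without the control array of wild-type mouse 3 (1.84, adjusted p = 0.0475) and with the slide (1.33, 0.0451) or the scan day (1.27, 0.0431) as a block. The miR-29b change was -0.18 ± 0.43 on A_52_P417489 and -0.94 ± 0.57 on A_51_P388310, where the mice gave -0.89, -1.47 and -0.45. Under the fixed block by mouse their adjusted p-values were 0.624 and 0.0676, but A_51_P388310 passed with the mouse as a random block (-0.94 ± 0.28, adjusted p = 0.038).

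Hbp1 encodes HMG-box protein 1, a transcriptional repressor that slows the cell cycle and inhibits Wnt signalling. On A_52_P39247 Dgcr8-deficient control read 3.40, 3.61 and 3.52 and miR-29b 2.64, 3.08 and 2.93. The wild-type readings were 2.53, 2.05 and 2.99 in control and 2.94, 2.75 and 2.98 with inhibitors. Dgcr8-deficient control lay above every other array, and the other 3 groups overlapped.

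The control groups differed by 0.98 ± 0.24 (1.98-fold, adjusted p = 0.0171). That call was lost without the control array of Dgcr8-deficient mouse 3 (adjusted p = 0.0549) or of wild-type mouse 2 (0.0533) or 3 (0.0527), without both arrays of Dgcr8-deficient mouse 3 (0.0564), and in a fit of the 6 control arrays alone (0.0759). Within the shared slides the difference was 0.86 and 1.47. With miR-29b the probe was lower in all 3 mice, by 0.76, 0.53 and 0.59, and with the mouse as a block it fell (-0.63 ± 0.15, adjusted p = 0.0419; without the block, 0.332). Inhibitors gave 0.41, 0.70 and -0.01, a mean of 0.36 ± 0.24 (adjusted p = 1). The dimmer probe A_51_P216605 changed little with miR-29b (0.04, under 0.01 in size, and -0.18 in mice 2, 3 and 4; mean -0.05 ± 0.29), so the probes of Hbp1 disagreed, and it was 0.80 ± 0.29 higher in Dgcr8-deficient control (adjusted p = 0.0929; 0.00463 with the slide as a block).

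Cdc42 encodes a GTPase that organises actin and cell polarity. The middle probe by brightness (A_52_P229728) read 4.39, 4.37 and 4.31 in Dgcr8-deficient control, 3.99, 3.89 and 3.95 with miR-29b, 4.89, 5.0 and 4.95 in wild-type control and 4.78, 4.94 and 5.03 with inhibitors. Here the wild-type groups overlapped each other and were the highest, Dgcr8-deficient control was lower, and miR-29b was lowest, with no overlap between the last 2 groups or with the wild type. A_52_P249443 had the same order and gaps, while on A_51_P230977 all neighbouring groups overlapped.

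A_52_P229728 was 1.5-fold lower in Dgcr8-deficient than in wild-type control (-0.59 ± 0.15, adjusted p = 0.0194), with -0.50 and -0.69 within the shared slides. The call was lost without the control array of Dgcr8-deficient mouse 4 (adjusted p = 0.059) or of wild-type mouse 2 (0.0521), 3 (0.0587) or 4 (0.0631), with quantile normalization (0.0736), and in a fit of the 6 control arrays alone (0.0988). The other Cdc42 probes gave -0.52 ± 0.17 (adjusted p = 0.0648; 0.0109 with the slide as a block) and -0.40 ± 0.38 (adjusted p = 0.589). With miR-29b all 3 probes were lower in 3 of 3 mice, by 0.31 to 0.61. Under the block by mouse they fell by 0.42 ± 0.09 (A_52_P229728, adjusted p = 0.0314), 0.53 ± 0.09 (A_52_P249443, 0.0214) and 0.40 ± 0.10 (A_51_P230977, 0.0459). The call of A_51_P230977 was lost with the mouse as a random block (adjusted p = 0.0873), and its change without the block was -0.10 without the control array of mouse 4 and -0.66 without the miR-29b array of mouse 4. Between the control groups that probe ranged from -0.69 to -0.11 with 1 array left out, the smallest without wild-type mouse 3. Without the block their adjusted p-values were 0.272, 0.219 and 0.835. Inhibitors gave mean changes of -0.03 ± 0.15, -0.10 ± 0.17 and -0.01 ± 0.38 in the same order.

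Ppm1d encodes WIP1, a phosphatase that switches off p53 and the DNA damage response. Its dimmer probe, A_52_P26155, read -0.44, -0.39 and 0.22 in Dgcr8-deficient control and -1.35, -1.15 and -0.48 with miR-29b. Its wild-type values were -1.13, -0.62 and -1.09 in control and -0.93, -0.50 and -1.14 with inhibitors. Dgcr8-deficient control lay above the other 3 groups, which overlapped. miR-29b gave -0.92, -0.76 and -0.70 in the 3 mice, and with the mouse as a block the probe fell (-0.79 ± 0.10, 1.73-fold, adjusted p = 0.00956; without the block, 0.312). With that block the miR-29b effect was also lower than the inhibitor effect (-0.88 ± 0.13, adjusted p = 0.0423). The brighter probe, A_51_P131526, stands for the gene in counts of genes and in the figure of levels. It gave a miR-29b change of -0.25 ± 0.21 (-0.38, -0.07 and -0.30 in the 3 mice) and did not pass with the block (adjusted p = 0.130). Between the control groups A_52_P26155 differed by 0.74 ± 0.29 and A_51_P131526 by 0.12 ± 0.21, and neither passed (adjusted p = 0.120 and 0.800). With the slide as a block, which treats the arrays of a mouse as independent, A_52_P26155 did (0.72, adjusted p = 0.00461).

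Bace1 encodes beta-secretase, which cuts the amyloid precursor protein, and it was the 1 member called higher with miR-29b. It read -2.67, -2.80 and -2.18 in Dgcr8-deficient control and -2.12, -2.22 and -1.87 with miR-29b. Wild-type control read -2.78, -2.68 and -2.93, and inhibitors -2.91, -2.61 and -2.92. The 4 groups overlapped with their neighbours, but each Dgcr8-deficient mouse was higher with miR-29b, by 0.55, 0.58 and 0.31. With the mouse as a block Bace1 rose (0.48 ± 0.10, 1.39-fold, adjusted p = 0.0297; without the block, 0.405). Inhibitors gave -0.01 ± 0.20, and the control groups differed by 0.25 ± 0.20 (adjusted p = 0.505).

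Klf4 and Grn passed in none of these tests, with or without the block. Klf4, a Krüppel-like transcription factor associated with quiescence and pluripotency, read -0.17, -1.31 and -1.48 in Dgcr8-deficient control, -0.28, -1.30 and -1.52 with miR-29b, -1.46, -1.76 and -0.95 in wild-type control and -1.49, -1.74 and -1.18 with inhibitors. Mouse 2 of the Dgcr8-deficient genotype was the high one on both of its arrays, and the mean miR-29b change was -0.05 ± 0.42, or ± 0.09 with the mouse as a block. Grn encodes progranulin, a secreted growth factor that also acts in lysosomes. Its probe A_52_P508750 read 7.66, 8.17 and 6.57, 7.75, 8.44 and 6.81, 7.69, 6.90 and 7.97, and 7.90, 7.05 and 7.82 in Dgcr8-deficient control, miR-29b, wild-type control and inhibitors, so that mice of one genotype differed by more than treatments did. The miR-29b change was 0.20 ± 0.51 on this probe and -0.24 ± 0.38 on A_51_P192800, whose inhibitor values were 0.22, 0.15 and 0.17 higher.

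**Figure D2:**
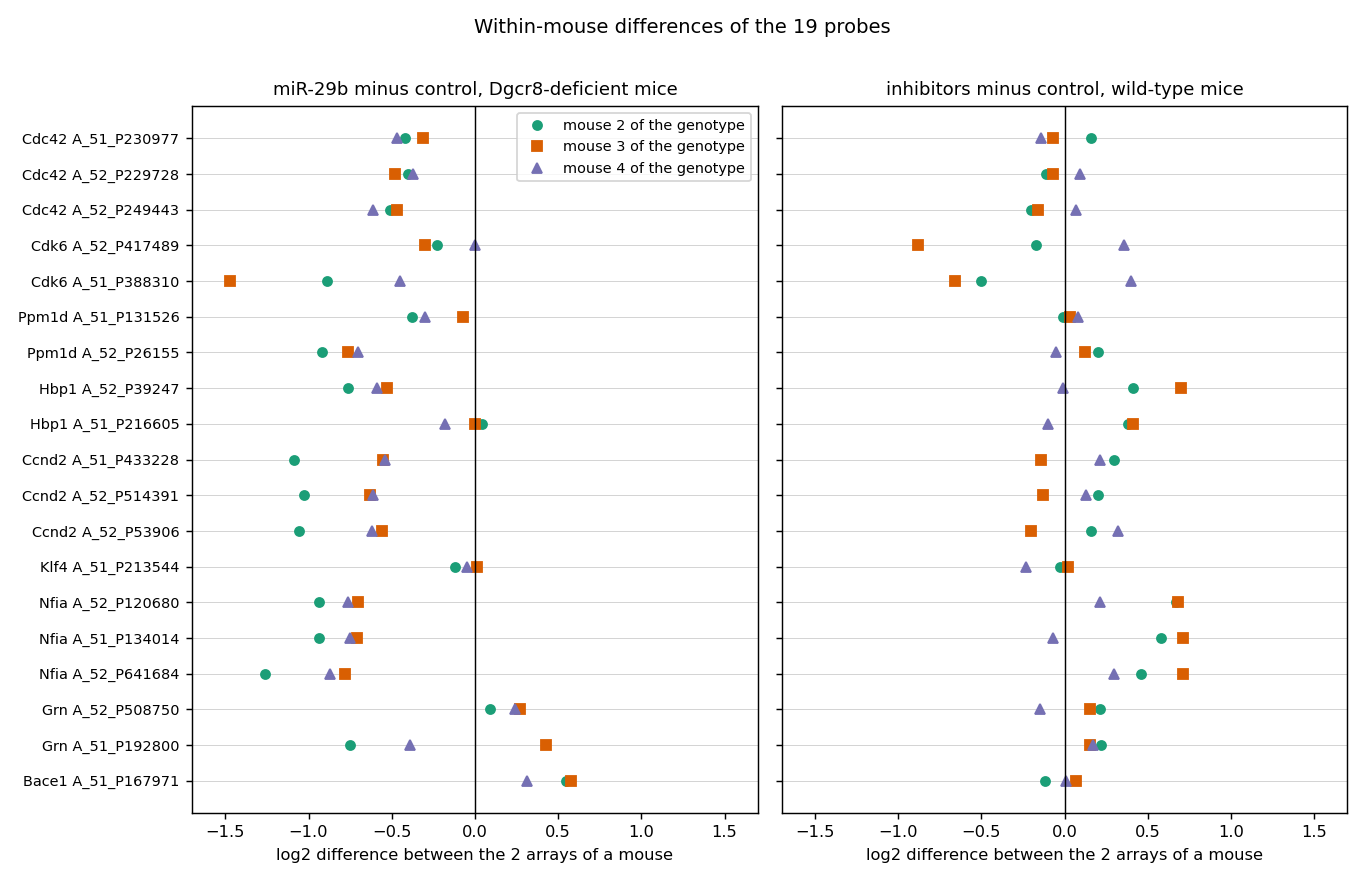
Treated minus control array of each mouse (log2 difference, horizontal axis) for the 19 probes, with 1 symbol per mouse; miR-29b in Dgcr8-deficient mice on the left and inhibitors in wild-type mice on the right. On the left 14 probes lie below zero in all 3 mice and 2 above; on the right 3 lie above zero in all 3 mice and 0 below.

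Counted over the mice, 14 of the 19 probes were lower with miR-29b in 3 of 3 mice, where 20.8% of the array's probes were, and 2 (Bace1 and 1 of Grn) were higher in 3 of 3, where 35.7% were. The groups did not overlap on 9 member probes, all lower with miR-29b (5.48% of all probes were lower without overlap and 7.89% higher): 3 of Nfia, 2 of Ccnd2, 2 of Cdc42, 1 of Ppm1d and 1 of Hbp1. With inhibitors 3 probes, 2 of Nfia and 1 of Grn, were higher in 3 of 3 mice, against 13.3% of all probes, and 0 were lower in 3 of 3, against 9.12%. Each wild-type mouse pair had small differences on most members, and the median change over the 19 probes was 0.07, against 0.01 over all probes. Only 1 member probe was below 0.05 unadjusted with inhibitors, as were 121 of all probes. The effect of miR-29b minus that of inhibitors passed for 0 of the 19 probes in the fit of group means, and for 9 probes of the array (0.0279%). Unadjusted, 5 of the 19 were below 0.05, as were 1740 of all 32215 probes. With the mouse as a block it passed for 3, all lower (1.35% of all probes were, and 0.770% were higher): 2 of Nfia and 1 of Ppm1d.

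**Figure D3:**
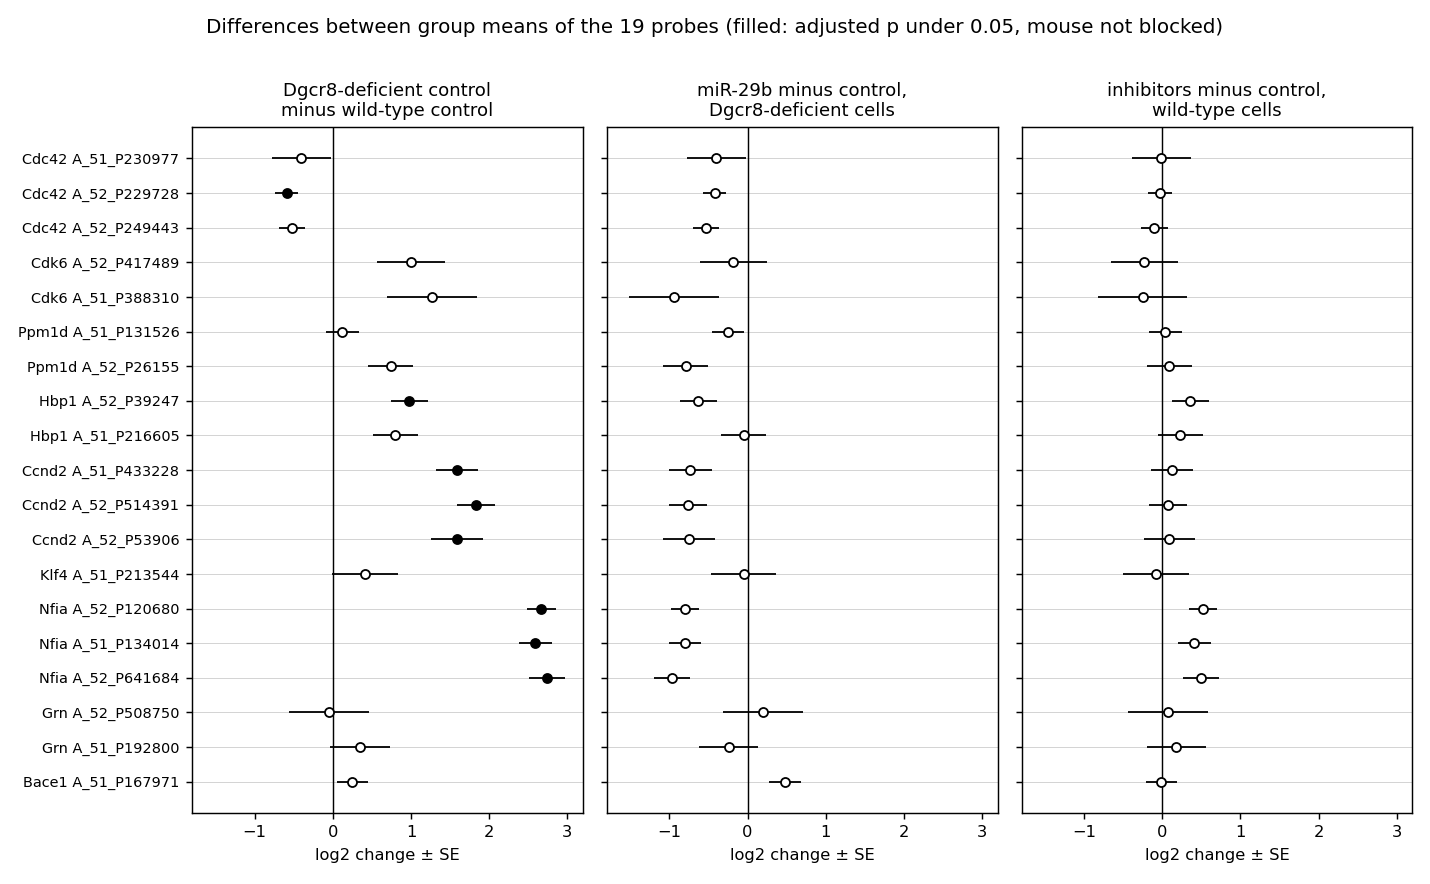
Differences between group means (log2 change ± SE from limma, n = 3 per group, horizontal axis) of the 19 probes for the control groups of the 2 genotypes, miR-29b and the inhibitors; filled symbols passed an adjusted p of 0.05 without the mouse as a block. The filled probes on the left number 8, from -0.59 for Cdc42 to 2.74 for Nfia, and none in the other 2 panels.

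Between the control groups 7 probes were called higher in Dgcr8-deficient cells and 1 lower, where 8.08% and 9.03% of all probes were. With the slide or the scan day as a block, 12 and 13 member probes passed, where 37.4% and 34.6% of all probes did. Both blocks, like the fit without a block, treat the arrays of a mouse as independent. The p-values with these blocks do not measure the spread between mice alone. Without overlap, 9 member probes were higher (14.8% of all probes were) and 2 lower (18.0%). The same control arrays enter this comparison and those of miR-29b and of the inhibitors, so the values stand side by side and were not correlated. For Nfia they were 2.67, -0.80 and 0.52, for Ccnd2 1.59, -0.73 and 0.12, and for Hbp1 0.98, -0.63 and 0.36 (genotype, miR-29b and inhibitors, brightest probes). For Cdc42 (A_52_P229728) they were -0.59, -0.42 and -0.03, so that on this probe the Dgcr8-deficient control mean lay below the wild-type control mean, and the miR-29b mean below both. Markers of B cells moved with the genotype: all 5 had a probe, 4 of 5 were well above background on all arrays, and their summed level was 2.07 to 3.37 on Dgcr8-deficient and -1.53 to -0.82 on wild-type arrays. For myeloid markers, of which 8 of 9 had a probe and 4 were well above background on all arrays, it was -2.32 to -0.64 and -0.50 to 0.71. Between the Dgcr8-deficient and wild-type control means, the B cell marker Pax5 was level (-5.5 in both). The myeloid list was split: Fcgr3 (-2.73 and -0.5), Adgre1 (-6.05 and -3.33) and Csf1r (-4.31 and -4.16) were lower. Itgax (-4.59 and -7.2), Itgam (-5.63 and -6.09) and Cd14 (-3.5 and -3.7) were higher. The part of the B cell and myeloid markers in the genotype differences of the members was not tested, and in these bulk cultures a change in cell mixture and in RNA per cell cannot be told apart.

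Genes of the members' pathways were read from lists, using the brightest probe of each of 14736 genes with p-values adjusted over all probes. Genes beyond the 3 of a list with the smallest p with miR-29b were named after their values were seen. With miR-29b 0.692% of all genes were called lower and 0.509% higher without the block, and 7.62% and 9.78% with it, and the median over all genes was 0.10. Of 17 D cyclin and CDK4/6 pathway genes tested, 0 passed without the block and 4 were lower with it: Cdkn2c, a CDK4/6 inhibitor (-0.72 ± 0.12, adjusted p = 0.0178), Ccne2, Cdk2 and Cdkn2a. The median of that list was -0.34 (-0.15 without the control array of mouse 3), and 14 of the 17 were below zero, while its members include both cyclins and inhibitors, which act in opposite ways.

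Of 16 genes around p53 and the PPM phosphatases, H2ax, the histone variant marked at DNA breaks and a substrate of WIP1, was lower (-0.88 ± 0.16, adjusted p = 0.0372). That call was lost when any 1 of the 6 Dgcr8-deficient arrays was left out. With the block 4 were lower (H2ax, Mdm4, Chek1 and Chek2) and 2 higher (Ccng1 and Gadd45a). Of 13 Wnt pathway factors and HBP1 partners, 0 passed without the block. With it Ctnnbip1, an inhibitor of beta-catenin, was lower (-0.98 ± 0.10), as was Ctnnb1, and the factors Lef1 (0.87 ± 0.11) and Tcf7 (0.79 ± 0.15) were higher. Among 10 secretase and APP family genes, Adam17, an alpha-secretase, was lower (-1.05 ± 0.18, adjusted p = 0.0317; -1.05 ± 0.10 with the block), and without the block that call too was lost without any 1 of the 6 arrays. Bace1 and Adam17 thus differed in opposite directions with the block.

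Of the other nuclear factor I genes 3 were tested and 0 passed without the block, their median was 0.45 (0.13 without the miR-29b array of mouse 3), and Nfic was higher with it (0.45 ± 0.08, adjusted p = 0.0245), while Nfib read 0.99 ± 0.78 and Nfix 0.12 ± 0.32 without it. Of 15 other Krüppel-like factors 0 passed, and 1, Klf3, was lower with the block (-0.72 ± 0.18). Of 17 progranulin receptors, proteases and lysosomal partners 0 passed, and with the block Lamp1 (0.65 ± 0.09) and Psap (0.56 ± 0.10), both lysosomal, were higher. Of 41 tested genes among 47 other reported miR-29 targets, 5 were lower and 0 higher without the block: Dnmt3b (-1.96 ± 0.22), Narf, Fbn1, Ifng and Dnmt3a. Leaving out 1 array gave between 1 and 5 genes of this list called lower, not always the same ones by necessity. The count was 1 without the control array of mouse 2 or the miR-29b array of mouse 4, and 0 without both arrays of mouse 3. With the block 13 of the 41 were lower and 1 higher, beside 4 lower and 1 higher of the 9 genes described here.

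With inhibitors 0 genes of these lists passed, with or without the block, and 0% of all 14736 genes did (59 were below 0.05 unadjusted without the block). Between the control groups 11.2% of all genes were called lower in Dgcr8-deficient cells and 8.33% higher. The counts higher and lower were 2 and 2 of 17 for the D cyclin list, where Ccnd3 was higher (1.96 ± 0.25) and Cdk4 lower (-0.97 ± 0.18), 4 and 1 of 16 for the p53 list and 3 and 1 of 13 for the Wnt list. They were 3 and 0 of 15 for the Krüppel-like factors, 0 and 0 of 3 for nuclear factor I, 2 and 2 of 10 for the secretases, 2 and 1 of 17 for the progranulin list and 6 and 3 of 41 for the other reported targets. Leaving out 1 array gave 0 to 3 lower among the other targets, 1 to 2 lower in the D cyclin and secretase lists, 2 to 4 higher and 0 to 1 lower in the p53 list, and 1 to 2 higher in the Wnt list.

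Over the 12 arrays, which come from 6 mice in 4 groups, the genes whose levels were most like each member's were as follows, among 12162 genes well above background on all arrays (Pearson's r, as a description). For Nfia they were H2bu2 (0.992) and Xdh (0.988). Those nearest Ccnd2 were Ifng (0.979) and Smug1 (0.979). Cdc42 was nearest to Lypla1 (0.986) and Mfsd8 (0.983), Hbp1 to Itgb3 (0.949) and Fn3k (0.922), and Cdk6 to Sorcs2 (0.958) and Celsr1 (0.957). The pairs for Ppm1d were Acot11 (0.946) and Plekhm3 (0.945), for Klf4 Max (0.935) and Trim16 (0.934), for Grn Chrne (0.992) and Pex11g (0.991), and for Bace1 Skp1 (0.974) and C87436 (0.972). These points share genotype, mouse and slide.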

How the data were processed

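Each of 12 one-colour arrays had 45018 spots, of which 1639 were controls. Spot intensity was deposited in arbitrary units, extracted and background-subtracted with Agilent Feature Extraction 10.5.1.1, per the file headers. A second deposited table holds the authors' log2 values. The submitters' processing notes name limma, and the table's scaling is not given in the sources used here. Its column medians were 6.95 to 6.96, and it served as an alternative. The members and gene lists were chosen with earlier results of these data known.

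Processed signals were converted to log2, the array's 75th percentile was subtracted, outlier-marked spots were left out, and spots of one probe were averaged. Probes well above background on at least 3 of 12 arrays were kept (32215 of 41174). Accessions in the files were matched to RefSeq gene symbols (24886 probes matched, 16288 not). The brightest probe stood for a gene in counts of genes. One further gene list is not reported here.

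Group means were compared with limma 3.58.1 (lmFit and eBayes, R 4.3.3, tables read with the R package data.table, version 1.17.8) over all 12 arrays, with Benjamini-Hochberg adjustment over all probes and a threshold of 0.05. Every adjusted p and standard error comes from these fits. P-values measure the spread between mice, or within mice with the mouse as a block. The fit without a block also treats the 2 arrays of a mouse as independent. Its tests between genotypes and across the 4 groups therefore count more arrays than mice. With the slide or the scan day as a block p-values mix both spreads, and the arrays of a mouse are again treated as independent. The design text pairs the Dgcr8-deficient arrays by mouse, and the mouse numbers also pair the wild-type arrays: deviations of same-mouse arrays correlated at 0.638, 0.635 and 0.811 in Dgcr8-deficient and 0.468, 0.764 and 0.489 in wild-type mice. Same numbers across genotypes (0.245, -0.44 and -0.458) were not paired. Arrays lay on 4 slides, scanned on 2 days. Named genes were all members, up to 3 genes per list with the smallest p with miR-29b, any list gene past the threshold with inhibitors, the 2 genes nearest each member, and Dgcr8. Single cell type markers were named after their values were seen. On simulated data for the miR-29b comparison (32215 probes), the fit without the block recovered 12% of 100 changes of size 1 (log2) and 50% of 100 of size 2, with 4 false calls, and made 0 calls in a null comparison. Simulated arrays were independent, whereas real arrays of a mouse had a consensus correlation of 0.77. The simulation therefore does not describe the fits with the mouse as a block, or false calls among correlated arrays. The number of arrays limits the precision. Alternatives were the mouse, slide and scan day as blocks, quantile normalization, normexp with an offset of 50 (on the median spot signal, the one the files hold), the authors' values, other filters, a single probe per gene, 6 arrays alone, each array left out and, added after seeing the data, outlier-marked spots kept.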

Additional observations from a re-analysis of the deposited data

How the results depend on the processing

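With miR-29b, 0 of the 19 probes passed without a block, and 12 did with the mouse as a block (the paired analysis), 12 with the mouse as a random block (11 of them shared, with Cdk6 A_51_P388310 in place of Cdc42 A_51_P230977), 11 with the slide and 10 with the scan day as a block. The count was 3 in the authors' table, and 1 each with quantile normalization, with probes well above background on all 12 arrays and with 1 probe per gene. Counts were 0 with each array left out, with the 6 arrays alone, with normexp, with no filter and without both arrays of Dgcr8-deficient mouse 3. For the effect of miR-29b minus that of the inhibitors, 0 became 3 with the mouse as a block, 8 with it as a random block, 2 with the slide and 4 with the scan day. With inhibitors 0 passed under every alternative run, the block included, so the block changed no other call within a genotype; as a fixed block it could not be fitted between genotypes. Between the control groups the count of 8 became 13 with the scan day as a block and 3 with 1 probe per gene, and was 6 to 8 with 1 array left out. It was 6, all of Nfia and Ccnd2, in a fit of the 6 control arrays alone, which holds 1 array per mouse. With the mouse as a random block it was 8. Across the 4 groups 8 became 11 probes of 6 genes with the mouse as a random block, 13 with the slide, 13 with the scan day and 4 with 1 probe per gene. Fits of 1 probe per gene held 9 member probes. Shares of all probes are not given here for the random block. Nor are they given for the slide and scan day in the difference of effects and across the 4 groups. Without those shares a rise in the count cannot be read as a result about the members.

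Scaling shifted the median of all probes with miR-29b from 0.10 to -0.03 (quantile), 0.14 (normexp) and 0.00 (authors' table), and between the control groups from -0.03 to -0.25 with normexp. Calls with miR-29b were 129 higher and 166 lower, against 108 and 278 with quantile normalization, 57 and 136 with normexp and 240 and 411 in the authors' table. They were 2603 and 2909 between the control groups, and 1686 and 2546 with normexp.

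Signs turned only on probes that passed in neither setting. On Grn A_52_P508750 quantile normalization gave -0.02 with miR-29b, -0.01 with inhibitors, 0.17 between the control groups and -0.01 for the difference of effects, and the authors' table gave -0.03 with inhibitors and 0.12 between the control groups. Cdc42 A_51_P230977 became 0.01 with inhibitors under normexp. For the difference of effects, Cdk6 A_52_P417489 became -0.03 in the authors' table, and Klf4 became -0.05 with quantile normalization, -0.02 in the authors' table and 0.00 without both arrays of mouse 3. Leaving out 1 array gave these ranges with miR-29b: Cdk6 A_52_P417489 -0.55 to 0.22, Hbp1 A_51_P216605 -0.29 to 0.17, Klf4 -0.43 to 0.36 and Grn A_52_P508750 -0.25 to 0.63. With inhibitors they were -0.28 to 0.28 and -0.09 to 0.04 for Cdc42 A_51_P230977 and A_52_P229728, -0.71 to 0.31 for Cdk6 A_51_P388310, -0.09 to 0.25 for Ppm1d A_52_P26155 and -0.07 to 0.35 for Ccnd2 A_52_P53906. They were -0.26 to 0.14 for Klf4, -0.24 to 0.34 and -0.05 to 0.43 for Grn A_52_P508750 and A_51_P192800, and -0.11 to 0.05 for Bace1. Between the control groups they were 0.00 to 0.65 for Klf4 and -0.40 to 0.39 for Grn A_52_P508750. For the difference of effects they were -0.32 to 0.46 for Cdk6 A_52_P417489, -0.35 to 0.44 for Klf4 and -0.32 to 0.56 for Grn A_52_P508750. Causes of these moves were not tested.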
